A study of Danio rerio with 6 samples.

Results

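The tripartite motif (TRIM) genes and their fish expansions were followed in zebrafish (Danio rerio) liver: 129 genes among the 30628 rows of the deposited count table. A gene was included when its Ensembl ID carries a symbol that begins with trim, ftr or btr and a number, and when its estimated count reached 10 in at least 3 of the 6 libraries. The table held 163 such symbols, and 34 of them stayed below that minimum. The 129 genes comprised 62 finTRIM genes (ftr), 19 bloodthirsty-related genes (btr), 15 genes of the numbered trim35- series and 33 other TRIM genes. Most of those 33 share a name with a mammalian TRIM, and 4 carry numbers above 100. Symbols are written as the name table gives them, some in capitals.

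RNA was sequenced from 6 liver samples, 3 labelled ATG5 and 3 labelled WT. The ATG5 group carried the transgenes Tg(fabp10a:mCherry-T2A-LexPR;LexOP:ATG5WT), in which the fabp10a promoter, active in hepatocytes, drives a mifepristone-activated factor that turns on human ATG5, an autophagy gene. The WT group had the genotype WT, both groups received mifepristone, and all titles carry the tag 2 wpi. The design text calls the groups hepatocellular carcinoma and normal liver. No age and no number of animals per sample is given, so each p-value speaks of the variation among 6 samples, and that variation could be technical. Without a transgenic group that lacked the drug, or a second line, effects of ATG5, of the tumour and of other differences between the lines cannot be told apart.

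Most TRIM proteins, though not all, are ubiquitin ligases built from a RING finger, B-box zinc fingers and a coiled coil. In many members a B30.2 (PRY-SPRY) domain follows. Some, such as TRIM25, act in the innate response to viral RNA, and others act in chromatin, muscle, neurons or cell division. Fish carry large lineage-specific sets. The finTRIM genes were first found as transcripts induced by virus in trout leukocytes, and the btr genes are named for bloodthirsty, a zebrafish TRIM gene needed for red blood cell formation.

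The total estimated count ran from 33668921 to 44763213 per library, and the TRIM genes took 0.119% to 0.135% of it in ATG5 and 0.0449% to 0.0485% in WT. Levels are CPM scaled with TMM factors (TMM CPM), which were 1.33 to 1.47 in ATG5 and 0.684 to 0.763 in WT. That scaling sets the zero point of every fold change: the median log2 fold over the 20366 genes tested was 0.03 with TMM and 0.97 with library sizes only. Changes are therefore given relative to TMM. Genes given below with a level or a fold, and whose direction turned with the other scaling, have its value too. In all, 20 of the 125 tested TRIM genes turned from lower to higher with library sizes only, and 0 the other way. In that setting 10853 of the 20366 genes tested were called higher and 578 lower, so a higher call there is common. The samples carried their tissue's markers, with 16 hepatocyte genes summing to 82200 to 113000 CPM in ATG5 and 266100 to 320100 in WT (0 higher and 13 lower of 16). The zebrafish gene ATG5 was not called (14.8 to 19.3 CPM in ATG5, 11.4 to 19.8 in WT, adjusted p = 0.65), which is no check of the human transgene, since its level is not analysed here. In whole liver, more cells of a type and more RNA per cell cannot be told apart.

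The ftr genes were the set in which most members were higher in ATG5. By edgeR's quasi-likelihood test at an adjusted p of 0.05, 35 of the 61 tested rose and 5 fell, and their log2 folds had a median of 1.86. Over all genes tested, 17.3% were called higher and 13.2% lower, and the median was 0.03. Among the other TRIM genes 4 of 32 rose and 5 fell, with a median of -0.01, shares close to those of all genes. The btr genes had 5 of 18 higher (median 0.81), and the trim35- genes 4 of 14 higher and 2 lower (median 0.54). No btr gene was called lower by edgeR, DESeq2 or limma-voom, and 0 had an unadjusted p under 0.05 in that direction. Together 48 of the 125 tested genes rose and 12 fell, and 4 genes could not be tested. The difference between families was not tested. The ATG5 and WT values did not overlap, with ATG5 above, for 39 ftr genes, 8 btr genes, 7 trim35- genes and 10 other TRIM genes. The same held for 27.1% of all genes tested, and the opposite order for 22.2%. With ATG5 below, there were 7 ftr, 2 trim35- and 8 other TRIM genes.

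**Figure D1:**
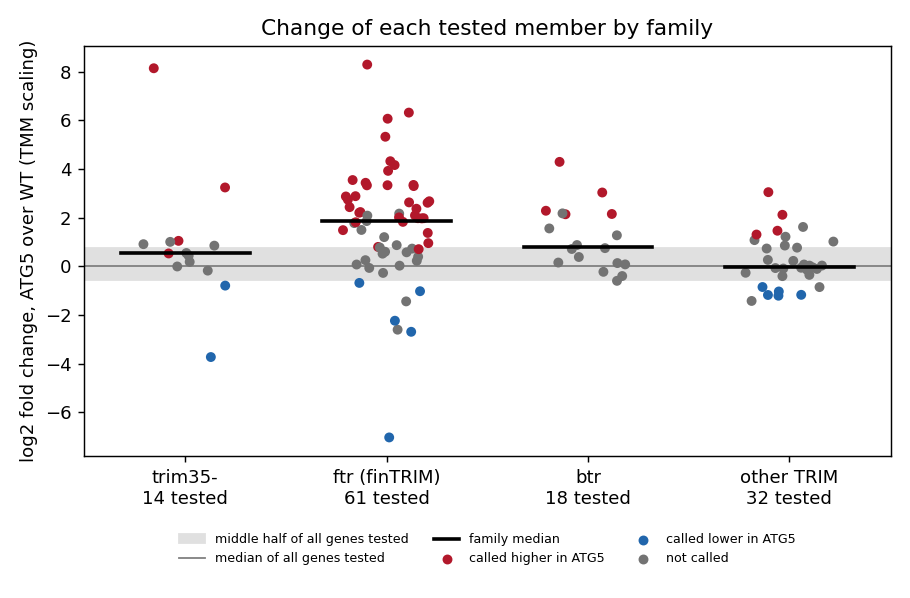
Log2 fold change (ATG5 over WT, TMM scaling) of each tested member, by family. Each point is a gene, coloured by its call, the black bars are family medians (1.86 for ftr, -0.01 for the other TRIM genes), the grey band spans the first to the third quartile of all genes tested, and the genes ftr07 and ftr37 are drawn at their bounds of 3.43 and -7.03.

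The count minimum itself favours genes that are high in a group. Of the 129 genes, 18 reached 10 counts in each ATG5 library and in no WT library, 14 of them ftr. Of the 17 of these that were tested, 13 were called higher and 4 were not called, a direction that the choice itself favours. Over all 20366 genes tested, 965 reached 10 counts in each ATG5 library and in no WT library, and 33 showed the reverse. How many of the 965 were called was not counted. The reverse held for 1 of the 129 genes. Among genes with 10 counts or more in all 6 libraries, 19 of 35 ftr genes rose and 4 fell (median log2 fold 1.37). In the other TRIM genes the same filter left 28, with 4 higher and 5 lower (median -0.05). It left 4 of 12 btr genes higher and 0 lower, and 2 of 10 trim35- genes higher and 2 lower. Of all genes tested 16381 passed this filter, and how many of them were called was not counted. These family counts therefore lack a matching share over all genes. With library sizes only the ftr median was 2.81 and that of the other TRIM genes 0.94, beside 0.97 for all genes tested.

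The summed level of a family takes in all its members, called or not. It does not depend on how reads were split among those members, but relatives under the count minimum are left out. The btr genes together stood at 76.6, 78.6 and 84.1 CPM in ATG5 and 35.2, 36.8 and 37.9 in WT, a ratio of means of 2.18. For the ftr genes the sums were 415.8, 433.4 and 470.8 CPM against 253.9, 267.1 and 279.1, a ratio of 1.65. The trim35- genes summed to 71.1, 65.6 and 70.1 CPM in ATG5 and 51, 50.4 and 50.3 in WT, a ratio of 1.36. In these 3 families every ATG5 library lay above every WT library. The other TRIM genes summed to 308.5, 343.2 and 327.4 CPM against 316, 281.4 and 283.2, and the groups overlapped. The log2 ratio of the ftr sums, 0.72, was smaller than the median ftr gene's 1.86, and the largest ftr contributor in WT, ftr51, which made up 21.2% of the WT sum, was lower in ATG5. In ATG5 the largest contributor was ftr82 with 14.3%. These shares are of counts and depend on transcript length.

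**Figure D2:**
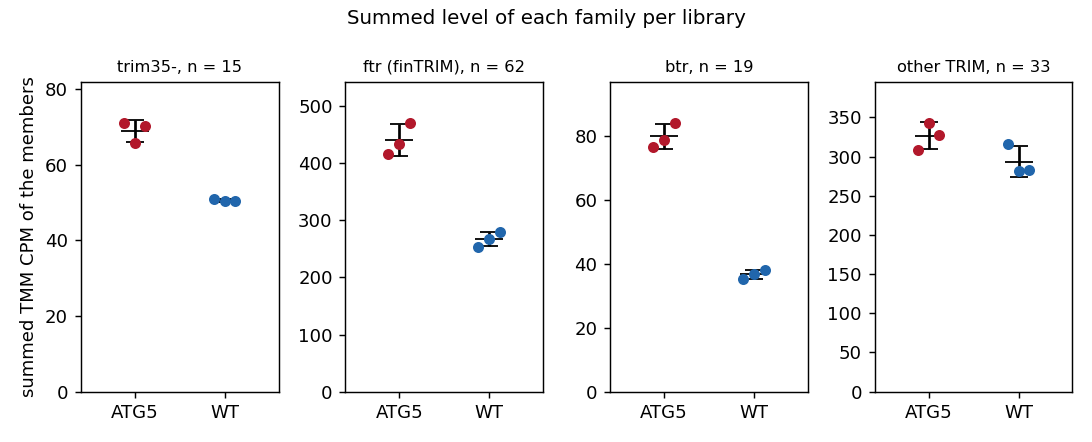
Summed TMM CPM of the members of each family in each library, with axes that start at 0. Points are libraries, and bars are the mean and SD of 3. The ftr, btr and trim35- sums are separate between the groups, while the WT library at 316 CPM lies inside the ATG5 range of the other TRIM genes.

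Among the ftr genes that rose, ftr11 was close to absent in WT. It stood at 16.4, 13.8 and 27.1 CPM in ATG5, and in WT it had 0, 5 and 0 counts. Its log2 fold was 8.29 ± 0.74 (SE, n = 3 per group, adjusted p = 0.00192), resting on the 5 counts of WT replicate 2; without that library the WT group was at 0. ftr56 was even across the ATG5 libraries at 17.8, 16.7 and 17.3 CPM and stood at 1.68, 0.987 and 2.5 in WT (log2 fold 3.33 ± 0.38, adjusted p = 0.00202). ftr98 was at 11.2, 4.11 and 8.55 CPM against 0.4, 0.449 and 0.476. In each of these 3 genes the lowest ATG5 library lay well above the highest WT library.

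ftr82, which took the most ftr counts in ATG5, was well above 0 in WT too. It stood at 49.2, 58.6 and 81.4 CPM in ATG5 and 24.5, 21.2 and 21.9 in WT, a log2 fold of 1.49 ± 0.22 (adjusted p = 0.00489). The genes with the smallest p included some of modest size: ftr93 had a log2 fold of 1.81 ± 0.12 and ftr64 one of 1.83 ± 0.09, with 15.5 ± 1.39 and 9.23 ± 0.99 CPM (SD, n = 3) in ATG5 against 4.42 ± 0.47 and 2.6 ± 0.07. ftr96, ftr43 and ftr22 had log2 folds of 1.97 ± 0.18, 2.74 ± 0.30 and 3.33 ± 0.21. The remaining called ftr genes ran from a log2 fold of 0.70 for ftr78 to genes seen almost only in ATG5. ftr07, for example, had no count in WT and 0.378 ± 0.168 CPM in ATG5, at least 3.43 on the log2 scale, with the whole WT group set to 3 counts, and leaving out ATG5 replicate 3 ended the call (adjusted p = 0.0561). The call of ftr78 was lost in every fit that left out a library but that without ATG5 replicate 2 (highest adjusted p = 0.0991). All 35 calls remained with library sizes only. That setting moved the median log2 fold of all genes tested from 0.03 to 0.97, so it could hardly lose a higher call. When each library was left out in turn, 21 of the 35 held in all 6 fits.

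Some ftr genes outside the naming rule, chosen after their values were seen, show the range of these changes. ftr08 had 53, 61 and 77 counts in the ATG5 libraries and 0, 1 and 0 in WT, all of them whole. ftr57 had 75, 30 and 62 counts against 1, 0 and 0. Both were thus seen in ATG5 and close to absent in WT, and the size of their folds is not well determined. ftr91 and ftr14 were present in both groups, at 6.95, 9.96 and 7.33 CPM against 0.36, 1.47 and 0.595 for ftr91 (log2 fold 3.297 ± 0.58) and at 5.48, 9.37 and 9.58 against 1.64, 1.05 and 1.31 for ftr14 (2.61 ± 0.32). ftr72 rested on uneven libraries: WT replicate 1 was at 1.04 CPM and the other WT libraries at 6.52 and 7.58, against 18.4 to 28.5 in ATG5. Its call (log2 fold 2.20 ± 0.92, adjusted p = 0.0479) was lost without any library but WT replicate 1 (highest adjusted p = 0.123).

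The 5 ftr genes that fell included the one with the most ftr counts in WT. ftr51 stood at 51, 62.9 and 55.5 CPM in WT and at 3.54, 18.9 and 13.4 in ATG5, with ATG5 replicate 1 far below the other ATG5 libraries (log2 fold -2.24 ± 0.74, adjusted p = 0.0284). That call was lost with library sizes only (log2 fold -1.28, adjusted p = 0.0963), and it was lost without ATG5 replicate 3 or without any WT library (highest adjusted p = 0.0723). ftr37 had 68, 73 and 61 counts in the WT libraries, 2.44 ± 0.27 CPM, and 0 in every ATG5 library. Its log2 fold was at least 7.03 lower, as a bound of -7.03 against 3 counts over the ATG5 group. ftr33 stood at 1.81, 0.81 and 1.19 CPM in ATG5 and 7.44, 8.65 and 8.57 in WT (-2.69 ± 0.33, adjusted p = 0.00306). Both ftr33 and ftr37 were called lower with library sizes only as well. ftr79 had a log2 fold of -1.02 ± 0.16 and ftr67 one of -0.68 ± 0.12, and with library sizes only these were -0.09 and 0.27, neither of them called. The call of ftr67 was also lost without ATG5 replicate 1 or 3 or WT replicate 1 or 3 (highest adjusted p = 0.068).

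**Figure D3:**
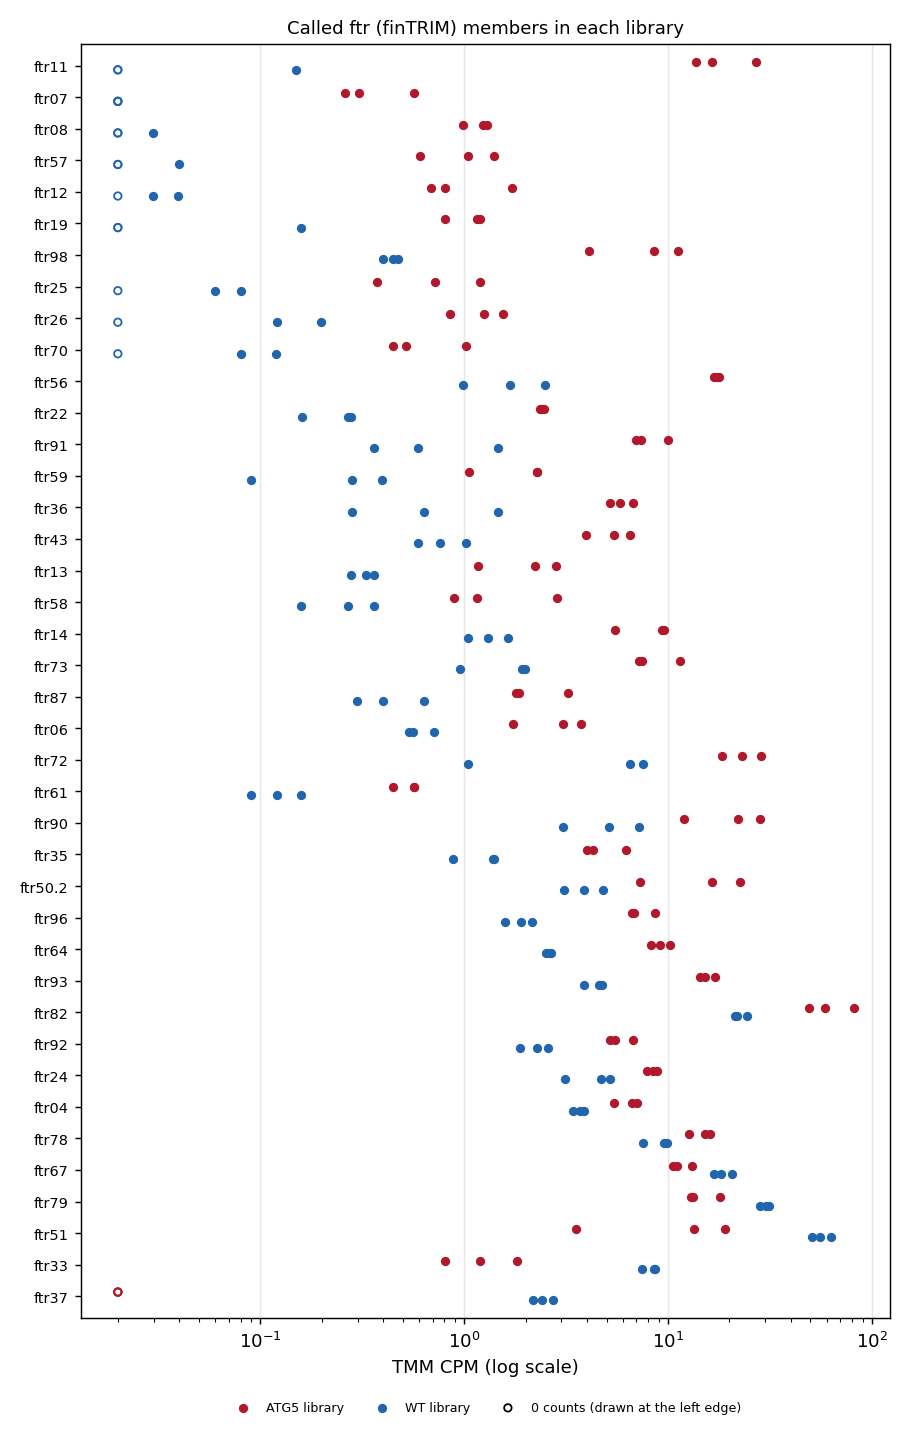
TMM CPM of the called ftr genes in each library, on a log axis, ordered by log2 fold change. Red points are ATG5 libraries, blue points WT libraries, and open points libraries with 0 counts; ftr11 stands at 13.8 to 27.1 CPM in ATG5, and ftr51 near the bottom at 51 to 62.9 in WT.

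A further 21 tested ftr genes did not pass, with log2 folds from -2.60 ± 1.24 for ftr30 to 2.17 ± 0.85 for ftr50. ftr83, whose protein is known in zebrafish to induce interferon in the gills, is named here after its values were seen. It stood at 10.2, 13.5 and 19.7 CPM in ATG5 and 15.1, 13.6 and 14 in WT, so the groups overlapped (log2 fold 0.03 ± 0.28, adjusted p = 0.95). Wide spreads within a group occurred too, as in ftr95 and ftr54, chosen in the same way along with ftr78 and ftr07. ftr95 was at 18.7, 3.62 and 3.86 CPM in ATG5 against 4.96, 4.91 and 7.46, and ftr54 at 6.92, 3.41 and 22.7 in WT.

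In the trim35- series, trim35-14 had the smallest p of all members. It was at 15.4, 15.3 and 12.7 CPM in ATG5, while the WT libraries held 1, 1 and 2 counts, so the size of the fold is set by 4 counts. The estimated counts of trim35-14 were whole in all 6 libraries. trim35-20 rose too, from 0.336 ± 0.127 CPM (SD, n = 3) to 3.22 ± 1.57, a log2 fold of 3.24 ± 0.58 (adjusted p = 0.00858). trim35-3 and trim35-28 were called with log2 folds of 1.05 ± 0.21 and 0.53 ± 0.12. Each of those 2 calls was lost in all 6 fits that left out a library (highest adjusted p = 0.0881 and 0.148). In the other direction trim35-9 stood at 0.54, 0.89 and 0.168 CPM in ATG5 and 8.97, 5.05 and 7.18 in WT (-3.73 ± 0.67, adjusted p = 0.00729). trim35-10 was called lower at -0.79 ± 0.11, a value that turned to 0.15 with library sizes only, and its call was lost without ATG5 replicate 1 or WT replicate 1 (highest adjusted p = 0.055). The gene trim35-45 did not pass, at 6.3 ± 1.18 CPM against 4.66 ± 0.84.

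The btr genes that rose were btr29, btr09, btr12, btr02 and btr16. btr29 stood at 14.5, 11.4 and 11.2 CPM in ATG5 and 0.44, 0.508 and 0.952 in WT, a log2 fold of 4.29 ± 0.34 (adjusted p = 0.00111), with whole counts in every library. btr09 was at 7.47, 15.3 and 14.6 CPM against 1.4, 0.957 and 2.22 (3.03 ± 0.48, adjusted p = 0.00448). In both genes the groups were far apart. btr12 rose from 1.25 ± 0.43 to 5.52 ± 0.39 CPM. The calls of btr02 (log2 fold 2.28 ± 0.74, adjusted p = 0.0276) and btr16 (2.15 ± 0.64, adjusted p = 0.0383) were weaker. btr02 was lost without any ATG5 library or WT replicate 1 (highest adjusted p = 0.0809), and btr16 without any of the 6 libraries (highest 0.121). btr04, the largest contributor of the family in WT, stood at 3.97, 11.5 and 5.27 CPM in ATG5 and 6.68, 9.42 and 8.14 in WT, and did not pass (log2 fold -0.23 ± 0.48). btr33 had a log2 fold of 0.38 ± 0.23 and btr06 one of -0.60 ± 0.35, neither called. With library sizes only, btr04 and btr06 turned to 0.73 and 0.31, again not called.

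**Figure D4:**
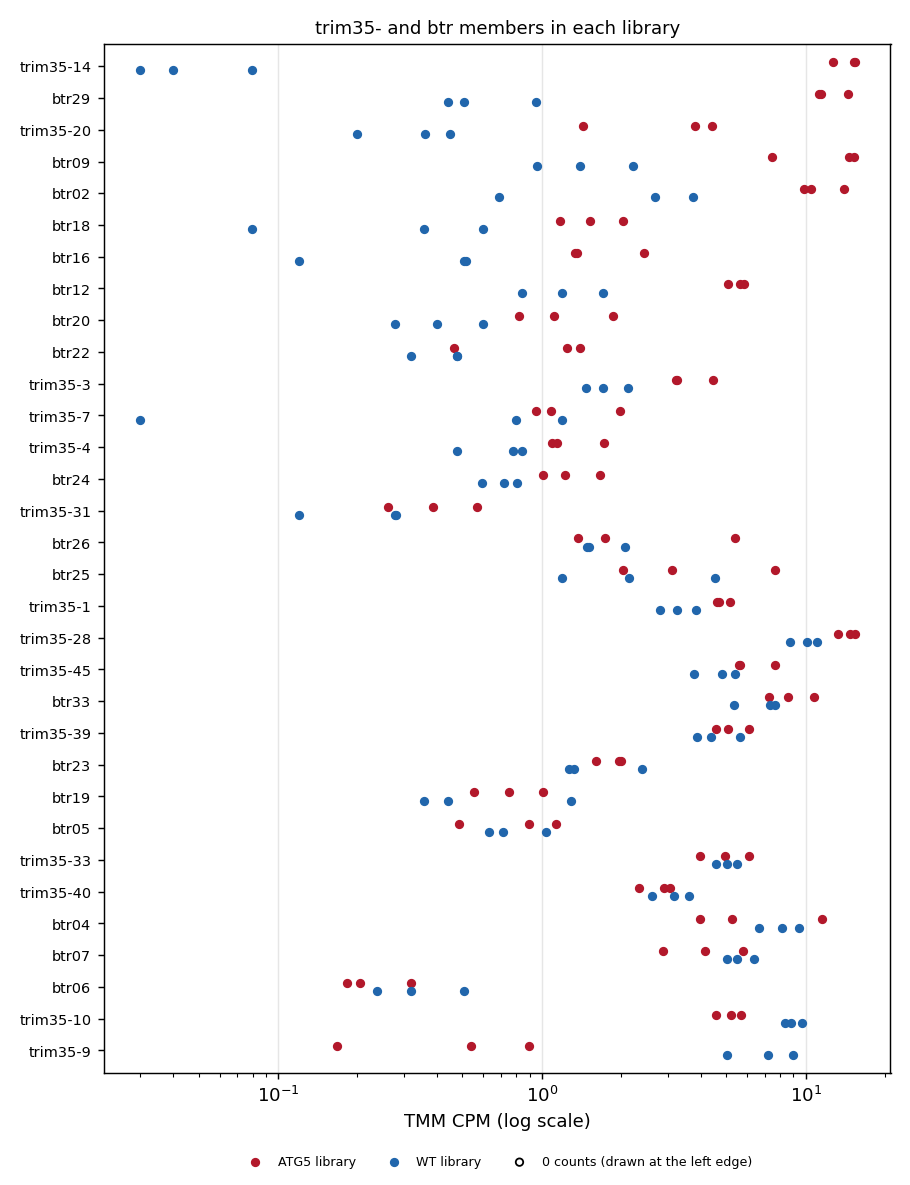
TMM CPM of the tested trim35- and btr genes in each library, on a log axis, ordered by log2 fold change, with ATG5 libraries in red and WT libraries in blue. trim35-14 and btr29 stand apart at the top, and trim35-9 is alone at the bottom with 0.168 to 0.89 CPM in ATG5 and 5.05 to 8.97 in WT.

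Among the other TRIM genes, trim25 took the most counts and rose. TRIM25 is the ligase that modifies the RNA sensor RIG-I in mammals. It stood at 90.1, 94.3 and 117 CPM in ATG5 and 42, 33.8 and 46.2 in WT, a log2 fold of 1.305 ± 0.18 (adjusted p = 0.00469). The 3 ATG5 values all lay above the WT values, and trim25 made up 30.8% of the summed level of the other TRIM genes in ATG5. Its relative trim25l, named after its values were seen, stayed under the count minimum, with 6 counts over the ATG5 libraries and 5 over the WT libraries.

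The TIF1 group, chromatin-binding TRIMs, was divided. trim33l rose, from 0.758 ± 0.315 to 3.29 ± 1.61 CPM (log2 fold 2.12 ± 0.56, adjusted p = 0.0261), but its call was lost without ATG5 replicate 1 or 3 or WT replicate 2 or 3 (highest adjusted p = 0.085). trim66 was called at 1.46 ± 0.46, and that call was lost in 5 of the 6 fits that left out a library, ATG5 replicate 1 being the exception (highest adjusted p = 0.124). TRIM33, needed for blood formation in zebrafish, stood at 11.8, 12.2 and 11.5 CPM in ATG5 and 16.1, 14.2 and 15 in WT. Its groups did not overlap, yet the log2 fold of -0.35 ± 0.06 did not pass (adjusted p = 0.0915) and turned to 0.60 with library sizes only. trim24 was at -0.14 ± 0.17, and at 0.81 with library sizes only. Both were called higher in that setting.

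The NHL-domain TRIMs, best known in neurons, moved in both directions. TRIM2 rose, at 4.9, 17.6 and 6.98 CPM against 1, 1.85 and 0.675 (log2 fold 3.05 ± 0.68, adjusted p = 0.0144). Without ATG5 replicate 2, the highest library, the log2 fold was 2.32, and without WT replicate 1 the call was lost (adjusted p = 0.059). Its relative trim2b fell, at 4.38, 4.47 and 3.49 CPM against 11.8, 6.67 and 10 (-1.21 ± 0.27, adjusted p = 0.0164), and that call was lost without ATG5 replicate 3 or WT replicate 1 (highest adjusted p = 0.0543) and with library sizes only (log2 fold -0.25). The table held a pair of TRIM3 genes. ENSDARG00000063711 was called lower, with 11.7 ± 3.12 CPM in ATG5 and 26.4 ± 6.18 in WT (-1.17 ± 0.29, adjusted p = 0.0197), which was lost without ATG5 replicate 2 or 3 or WT replicate 1 (highest adjusted p = 0.0607) and with library sizes only (-0.22). ENSDARG00000005397 stood at 11.4 ± 6.26 CPM against 5.41 ± 0.68 and was not called (1.08 ± 0.45). TRIM32, whose human gene is mutated in a limb-girdle muscular dystrophy, fell by 1.03 on the log2 scale (SE 0.34, adjusted p = 0.0451), a call lost without any library but ATG5 replicate 3 (highest adjusted p = 0.128) and with library sizes only (-0.08). TRIM71, known in stem and germ cells, stood at 9.59, 19.9 and 7.65 CPM in ATG5 and 13.2, 13.4 and 12.5 in WT (log2 fold -0.07 ± 0.42, and 0.90 with library sizes only, neither called).

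A pair of TRIM8 genes differed as well. TRIM8 acts on cytokine signalling in mammals. ENSDARG00000090512 stood at 27.1, 24.5 and 27.4 CPM in ATG5 and 50.3, 45.3 and 46.9 in WT (-0.85 ± 0.07, adjusted p = 0.00527), and its direction turned to 0.093 with library sizes only. ENSDARG00000060729 stood at 16.6, 25.4 and 18 CPM against 15.6, 20.9 and 14.9, with overlapping groups (0.22 ± 0.24). All 5 calls of lower other TRIM genes were lost with library sizes only, while all 4 higher calls remained. In that setting 21 of the 32 were called higher, beside 10853 of all 20366 genes tested. The fifth lower gene was trim110 (-1.18 ± 0.09, adjusted p = 0.0243), which was lost without any library but WT replicate 2 (highest adjusted p = 0.0738). trim108 had the lowest fold of the other TRIM genes at 1.64, 1.31 and 0.587 CPM against 3.96, 3.32 and 2.22; its groups did not overlap, but it did not pass (-1.42 ± 0.49, adjusted p = 0.0563).

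Further named TRIM genes did not pass. TRIM37, which acts at the centrosome in mammals, stood at 4.64 ± 0.19 CPM against 4.96 ± 1.19, trim59 at 4.87 ± 0.99 against 2.86 ± 0.85 with groups that did not overlap (adjusted p = 0.104), and TRIM45 at log2 fold -0.06 ± 0.28. TRIM9, best known in neurons, and TRIM36 had log2 folds of 1.02 ± 0.21 and 1.62 ± 0.60 (adjusted p = 0.11 and 0.0836), both under 2 CPM in every library. The muscle gene trim55a lay between 0.03 and 1.46 CPM, and trim63b between 0.101 and 0.568. TRIM13, TRIM23 and trim69 had log2 folds of -0.27 ± 0.22, -0.40 ± 0.08 and 0.85 ± 0.39, and TRIM62 (ENSDARG00000060901) one of -0.11 ± 0.28. With library sizes only, TRIM23, TRIM37 and TRIM45 turned to 0.54, 0.865 and 0.88 and were called higher. TRIM13, TRIM62 and trim63b turned to 0.68, 0.83 and 0.06 and were not called.

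**Figure D5:**
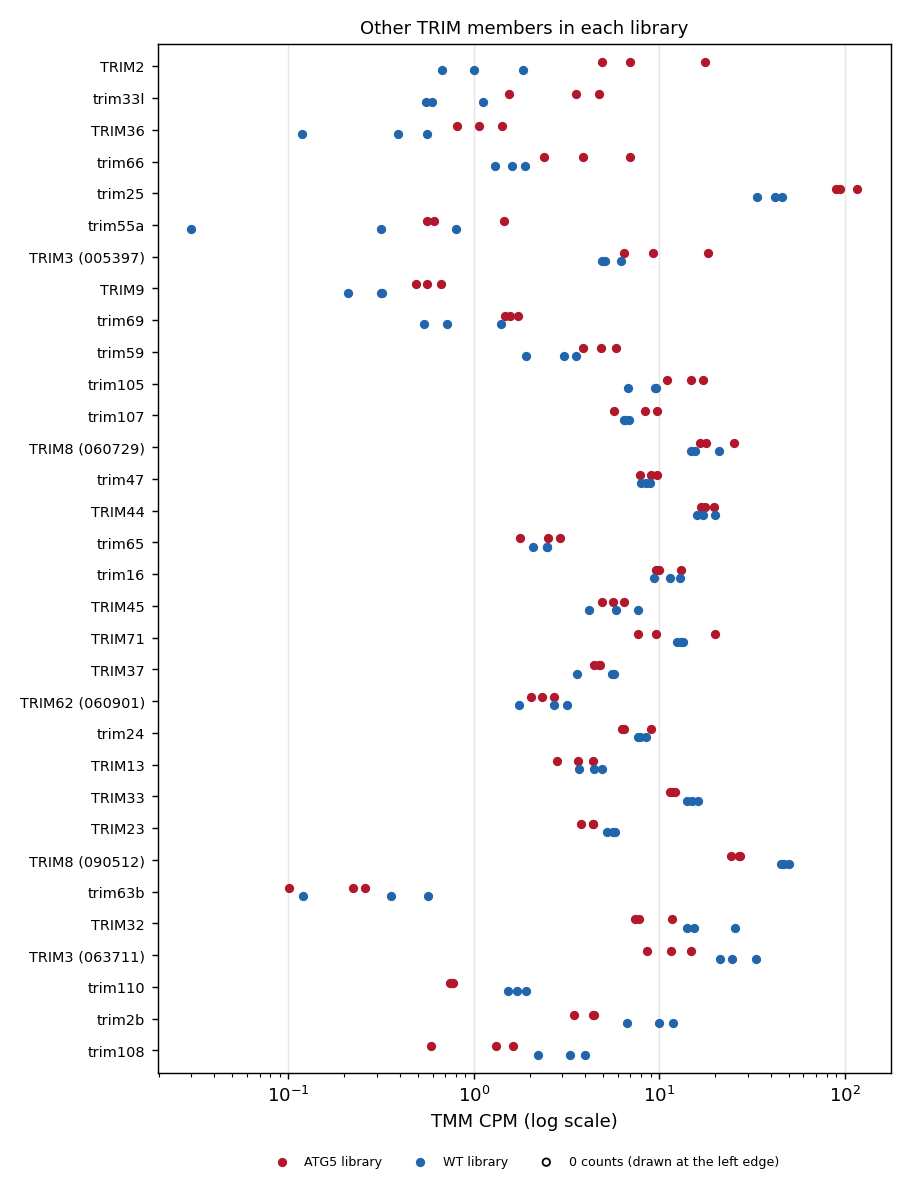
TMM CPM of the tested other TRIM genes in each library, on a log axis, ordered by log2 fold change, with ATG5 libraries in red and WT libraries in blue; symbols shared by 2 genes carry the last digits of the Ensembl ID. Of the 32 genes, the groups do not overlap for 10 with ATG5 above and 8 with ATG5 below, beside 27.1% and 22.2% of all genes tested. The gene trim25 stands on the right at 90.1 to 117 CPM in ATG5.

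Genes of RNA sensing and the interferon response, the pathway in which TRIM25 acts, were higher beside these families. Of 68 listed genes 56 matched and 52 were tested: 38 rose and 0 fell (median 2.21 on the log2 scale). The other 14 were not called, among them tlr3, ticam1, MYD88 and TRAF6. Over all genes tested, 17.3% were called higher and 13.2% lower. With library sizes only, 51 genes of the list were called higher, so which genes of the list were called depends on the scaling. The symbols rigi (RIG-I itself), stat1a and stat1b were among those without a match. One of the 52 had an unadjusted p under 0.05 in the lower direction, and DESeq2 and limma-voom also called 0 lower. irf3, a transcription factor activated by RNA sensing, stood at 14.5, 15.7 and 14.7 CPM in ATG5 and 2.96, 3.35 and 3.77 in WT (2.16 ± 0.11, adjusted p = 0.000949). DHX58, an RNA sensor related to RIG-I, had a log2 fold of 4.75 ± 0.33. IRF7, the factor that amplifies interferon genes, stood at 111, 75.1 and 93.8 CPM against 6.12, 5.71 and 5.44 (4.02 ± 0.17). The antiviral genes mxa, mxe and ifi44a1 had log2 folds of 7.56 ± 0.33, 6.04 ± 0.45 and 4.70 ± 0.21. For isg15, a ubiquitin-like modifier, the log2 fold was 5.21 ± 0.98, and 6.15 without WT replicate 3, the highest WT library. RSAD2, an antiviral enzyme gene, had a log2 fold of 5.51 ± 1.02, and 7.12 without that library. mavs, the adaptor that RIG-I signals through, stood at 69.8 ± 8.22 CPM against 81.6 ± 1.92 and did not pass (log2 fold -0.23 ± 0.10). It turned to 0.72 with library sizes only, where it was called higher.

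Markers of several other cell types moved with the groups, while the neutrophil, neuron and muscle sums overlapped between them. Over all genes tested, 17.3% were called higher and 13.2% lower. The macrophage list of 18 symbols gave 24 genes, with several genes named MFAP4 or CMKLR1. Of the 21 tested 17 rose and 1 fell, an MFAP4 gene (log2 fold -2.19), while other MFAP4 genes rose. The list summed to 1783 to 2111 CPM in ATG5 and 209.5 to 296 in WT, with no marker at 0 in all libraries of a group. The T cell list summed to 398 to 505.2 CPM against 12.1 to 16.2 (8 of 11 higher, 0 lower), of which THEMIS alone held 384 CPM in ATG5, and the B cell list to 45.1 to 94.3 against 5.95 to 7.15 (6 of 7 higher, 0 lower). The neutrophil list, at 108 to 113.2 CPM against 105.1 to 151.5, had 3 of 7 higher and 1 lower. The lower gene, il6r, held most of the WT sum, at 41.1 to 49.5 CPM in ATG5 and 74.9 to 121.2 in WT. All 13 dividing cell genes rose, and 5 of 8 biliary genes. Muscle and neuron markers, relevant to TRIMs best known in those tissues, were low. The neuron list summed to 4.51 to 16.2 CPM against 6.94 to 9.89, with 0 of 7 tested genes higher and 2 lower. The muscle list summed to 1.69 to 5.48 CPM against 1.03 to 70.9, with 1 of 5 higher and 0 lower. Its highest sum was in WT replicate 2, where actn3b alone held 70.1 CPM. The muscle genes ckma, pvalb1 and pvalb2 were at 0 in all WT libraries, as were the cytotoxic cell gene gzma and the biliary gene TSPAN1. Over the ATG5 libraries gzma had 102 counts, while ckma, pvalb1, pvalb2 and TSPAN1 had only 1, 3, 1 and 7 and were not tested. The NK and cytotoxic list summed to 9.07 to 16.2 CPM against 6.75 to 8.35, with 1 of 3 tested genes higher and 0 lower. The part of these cells in the TRIM changes was not tested.

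Close relatives can share reads, and an estimated count that is not whole shows that reads were divided with another gene. Of the counts of the 129 genes, 57.4% were not whole (tolerance 0.001), with 58.6% for ftr, 71.1% for btr, 57.8% for trim35- and 47% for the other TRIM genes, beside 50.8% over all genes tested. Counts were whole in all 6 libraries for 36 genes, of which 13 rose and 2 fell. Of the 13 such ftr genes 7 rose and 1 fell, and of the 15 such other TRIM genes 2 rose and 1 fell. Over all genes tested 8444 had 6 whole counts, and how many of those were called was not counted. The ftr genes with 6 whole counts included ftr56, ftr82 and ftr67, whereas ftr51, ftr79, ftr33 and trim25 had none, so their split from relatives is less certain. ftr11 had 2 whole counts and ftr37 had 3, and a library with no reads for a gene counts as whole. The split of ftr11 and ftr37 is therefore less certain too.

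The count minimum cut between near values. Just inside it, the third highest count was 10 for ftr99, 10.4 for trim35-24 and 10.6 for btr21; just outside, it was 7 for ftr42, trim35-12 and trim35-29. ftr42 had 46, 52 and 7 counts in ATG5 and 0 in WT. ftr99, trim35-24, btr21 and a second TRIM62 gene, ENSDARG00000095536, entered by the rule but were too low to be tested.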

How the data were processed

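Estimated counts, 1 value for each Ensembl gene and library, are as the authors deposited them. Per the submitters' processing notes, kallisto 0.45.0 and sleuth 0.30.0 were used, with FastQC 0.11.5 and the build GRCz11. Whether counting used strand is not given, so reads of a gene and of its antisense partner may be mixed. Of 30628 IDs, 77.1% matched a symbol. Counts were rounded, filtered with filterByExpr, TMM-scaled and tested in R 4.3.3 with edgeR 4.0.16 (glmQLFit, glmQLFTest, group only, Benjamini-Hochberg over 20366 genes). SEs come from log2 CPM (prior count 2) and are too narrow near 0 counts. A group at 0 was set against 3 counts, and family medians did not move with such genes at their bound; floors cover counting error only. Within each group, library pairs differed beyond sampling noise (chi-square per degree of freedom 102 to 186). Code was tested on simulated data. The members and lists were chosen with earlier results of these data known. Named were, per family, the 8 called genes with the smallest p in each direction, the 4 with the largest counts and the extremes of fold, plus TRIMs with a known role; of the innate list, the 6 genes of smallest p per direction and some listed by name. Not all are named. Alternatives were RLE factors, library sizes only, other filters, DESeq2 1.42.0, limma-voom (limma 3.58.1), a threshold of 0.01, a replicate block and leaving out each library.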

Additional observations from a re-analysis of the deposited data

How the results depend on the processing

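Main counts were 48 higher and 12 lower members, 35 and 5 for ftr, 4 and 2 for trim35-, 5 and 0 for btr, and 4 and 5 for the other TRIM genes. With library sizes only they were 91 and 3 for all members, 47 and 2 for ftr, 11 and 1 for trim35-, and 12 higher for btr. The other TRIM genes had 21 and 0 in that setting, with 10853 and 578 over all genes. Summed levels then had log2 ratios of 1.665 for ftr, 1.39 for trim35-, 2.065 for btr and 1.103 for the other TRIM genes, against 0.72, 0.45, 1.12 and 0.15 with TMM. In that setting 20 members turned from lower to higher, 9 of them called higher. TRIM23 (0.54), TRIM33 (0.60), TRIM37 (0.865), TRIM45 (0.88), TRIM8 ENSDARG00000090512 (0.093), trim24 (0.81), ftr67 (0.27), trim35-10 (0.15) and mavs (0.72), from the interferon list, were among the genes that turned. At an adjusted p threshold of 0.01 there were 25 higher and 5 lower members (19 and 3 for ftr, 2 and 1 for trim35-, 3 higher for btr, 1 and 1 for the other TRIM genes) and 1518 and 953 over all genes. DESeq2 called 7 other TRIM genes higher and limma-voom 1, and 3 were lower without the low-count filter. Same-numbered samples did not deviate together (correlations -0.0408, -0.0999 and 0.0211). A replicate block gave 2253 and 1636 calls over all genes, 2 higher trim35- genes and 3 lower other TRIM genes, while members had 34 and 9. Leaving out each library in turn gave 29 to 37 higher and 5 to 11 lower members, 22 to 29 and 3 to 5 for ftr, 2 and 1 to 2 for trim35-, 3 to 4 higher for btr, 2 to 4 and 1 to 4 for the other TRIM genes, and 2218 to 2791 and 1583 to 2071 over all genes. The summed log2 ratio ran from 0.40 to 0.47 for trim35- and from 1.06 to 1.14 for btr. The lowest member counts came without ATG5 replicate 3 (higher) and WT replicate 1 (lower), and none of the 60 calls turned into a call in the other direction under any of these alternatives. The cause of these shifts was not tested.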

Other observations

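Many of these genes lie beside each other. Of 155 symbols with a single gene, 134 matched by name in RefSeq's GRCz12tu gene table, which is of another build and was used only for the order of genes. With at most 5 other genes between neighbours, 36 tested members fell into 8 runs of 3 or more, a grouping and a choice of genes made after the values were seen. In the run from ftr38 to ftr95, 2 of 8 tested genes were higher and 2 lower. There ftr37, at 0 in ATG5, stands between ftr38 (log2 fold -0.27 ± 0.12, not called) and ftr36 (2.87 ± 0.64), and ftr33 (-2.69) lies in the same run. With library sizes only ftr38 turned to 0.67 and was called higher. The run from ftr19 to ftr26 had 4 of 5 higher, and that from ftr76 to ftr91 had 3 of 5, beside 35 of 61 over all tested ftr genes. The runs from ftr02 to ftr07, ftr59 to trim35-39 and trim35-3 to ftr50 had 2 of 4, 2 of 3 and 2 of 3 higher. Whether position went with the calls was not tested. The 4 btr genes from btr04 to btr07 and the 4 from btr23 to btr26 held no call, with log2 folds of -0.60 to 0.08 and 0.15 to 0.87. Of these, btr04, btr06 and btr07 turned to 0.73, 0.31 and 0.53 with library sizes only. The called btr genes btr29, btr09, btr12, btr02 and btr16 were outside both runs.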
